A study of Homo sapiens with 4 samples.

Results

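Cohesin loops were examined at 5 genes of the p53 pathway, CDKN1A, ZMAT3, PPM1D, FAS and TP73. A loop was taken for a gene when an anchor, a bin of 5 kb, overlapped the RefSeq body of the gene. By this rule 32 loops of the 41846 listed in any library belong to the 5 genes, with 12 on CDKN1A, 7 on ZMAT3, 3 on PPM1D, 4 on FAS and 6 on TP73. The DMSO library lists 22 of them, the APH library 23, the H2O library 18 and the HU library 15.

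The loops come from SMC1 HiChIP, in which chromatin is ligated in place and an antibody recovers the contacts that carry SMC1, part of the cohesin ring. All 4 libraries were made from GM12878, an established B lymphoblastoid line transformed by Epstein-Barr virus (their titles carry the name of a different lymphoblastoid line, whereas the other labels that name a line give GM12878). The APH culture received 0.4 µM aphidicolin, an inhibitor of replicative DNA polymerases, for 18 h. The HU culture received 0.2 mM hydroxyurea, which lowers the supply of deoxynucleotides, for 18 h. The DMSO culture, the vehicle control of APH, received dimethyl sulfoxide, and the H2O culture, the vehicle control of HU, received water. Each group holds 1 library. Every difference given here is therefore one between libraries, with no replicates behind it. The design asks how replication stress affects cohesin loops.

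The lists hold 17660 loops for DMSO, 27395 for APH, 22446 for H2O and 21448 for HU, with 449565 to 732695 contact counts in each. A pair of bins enters a list only with at least 12 counts and at least 2 times the expected count in the same list, so an unlisted pair is not a measured 0. The 9529 loops listed in all 4 libraries, called shared loops here, hold 300320 counts in DMSO, 376948 in APH, 322048 in HU and 325634 in H2O, and ratios between libraries were taken after scaling by these totals. Intervals are 95% exact intervals for counting error only, and they may be too narrow because PCR copies of 1 molecule can be counted more than once. As a check of the cell type, B cell markers carried listed loops for 5 of 7 genes in DMSO and HU and for 6 of 7 in APH and H2O. T cell markers did so for 0 to 2 of 4 genes, myeloid markers for 0 to 2 of 3, and erythroid markers for 1 of 3 (KLF1) in each library. Loops are not a measure of expression, and B cell markers carried the most listed counts in each library. The B cell set also holds the most genes, so its summed counts cannot be compared directly with those of the smaller sets. Of all protein-coding genes, 47.4% had a loop listed in at least 1 library, so the check is a rough one.

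The transcription factor p53 is stabilised when DNA is damaged or replication stalls, and it then switches on genes that halt the cell cycle, repair DNA or start cell death. CDKN1A encodes p21, the inhibitor of cyclin-dependent kinases through which p53 arrests the cycle. ZMAT3 encodes a zinc finger protein that binds RNA and acts in p53-dependent tumour suppression. PPM1D encodes the phosphatase WIP1, which switches the damage response off again, and FAS encodes a death receptor of the lymphocyte surface. TP73 encodes p73, a relative of p53 that binds similar DNA sites. Cohesin extrudes loops that bring promoters near distal elements, and it often stops where the factor CTCF is bound.

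The promoters of 3 of the 5 genes lie in bins that anchor listed loops, ZMAT3 with an outer and an inner start. The 250 bases before the start listed in the RefSeq promoter table are shown for these, because those starts lie within the measured anchors. The sequences are from RefSeq (GRCh38.p14, the same assembly as hg38), 5′ to 3′ on the gene's strand. Capitals mark GC boxes (GGGCGG on either strand) and matches to the CTCF core, a motif of 12 letters (either strand). They cover chr6:36678464-36678713 (plus strand) for CDKN1A, chr1:3652266-3652515 (plus strand) for TP73 and chr3:179071810-179072059 and chr3:179069343-179069592 (minus strand) for the outer and inner starts of ZMAT3.
CDKN1A: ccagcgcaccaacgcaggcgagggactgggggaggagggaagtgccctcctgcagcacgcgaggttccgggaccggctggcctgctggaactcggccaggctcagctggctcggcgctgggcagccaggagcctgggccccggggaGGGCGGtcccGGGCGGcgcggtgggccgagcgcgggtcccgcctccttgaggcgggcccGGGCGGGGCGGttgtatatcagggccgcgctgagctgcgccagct
TP73: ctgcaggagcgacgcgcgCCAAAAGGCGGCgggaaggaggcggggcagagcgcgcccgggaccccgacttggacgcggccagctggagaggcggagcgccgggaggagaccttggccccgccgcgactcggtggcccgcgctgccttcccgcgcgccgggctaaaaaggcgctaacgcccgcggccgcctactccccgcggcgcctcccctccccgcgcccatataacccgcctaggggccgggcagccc
ZMAT3 outer start: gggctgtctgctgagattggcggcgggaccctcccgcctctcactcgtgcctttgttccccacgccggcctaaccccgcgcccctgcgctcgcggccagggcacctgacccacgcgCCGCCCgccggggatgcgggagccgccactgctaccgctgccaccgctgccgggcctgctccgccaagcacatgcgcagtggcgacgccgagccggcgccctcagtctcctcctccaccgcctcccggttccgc
ZMAT3 inner start: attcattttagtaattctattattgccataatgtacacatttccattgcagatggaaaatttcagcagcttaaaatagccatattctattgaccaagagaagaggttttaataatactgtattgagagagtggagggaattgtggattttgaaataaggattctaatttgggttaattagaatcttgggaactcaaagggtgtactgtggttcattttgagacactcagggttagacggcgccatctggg

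The windows differ in base composition. G and C make up 76.4% for CDKN1A, 77.2% for TP73 and 75.2% for the outer start of ZMAT3 but 36% for its inner start, where the median of 35116 RefSeq promoters was 58%. The bin of the inner start anchored 3 listed loops, among them one found in all 4 libraries, and that of the outer start 1 loop, listed in APH alone. The CDKN1A window holds 4 GC boxes, the last pair overlapping, the outer ZMAT3 window holds 1 and its inner window holds none. A GC box occurs in 42.6% of all promoter windows of this length. The CTCF core occurs in 2.02% of windows and once here, in TP73. The p53 half-site, a motif of 10 letters, occurs in 5.57% of windows and has no match in any window shown. These matches describe letters in a window and were not measured as binding. Each window covers only the 250 bases before a start, and the rest of the anchor bins was not searched for motifs.

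CDKN1A lies on chromosome 6 (36676463 to 36687332, hg38, plus strand), with its listed start at 36678714. Its loops were lower in the HU library than in any other, while APH differed little from DMSO. Of its 12 listed loops, 9 use the bin at 36680001 to 36685000, which lies inside the gene body and begins 1287 bp after the start. The bin that holds the start anchors 2 loops, and the next bin downstream anchors 1. The bin with the start also covers the long non-coding RNA genes PANDAR, in part, and DINOL, so these genes and CDKN1A cannot be told apart there. On the other side the loops reach 3 kinds of place. The upstream anchors lie 50 to 70 kb away in a stretch between SRSF3 and CDKN1A that holds no protein-coding gene, with the microRNA gene MIR3925 in its central bin. The downstream anchors lie on RAB44, a RAB family GTPase gene, and on CPNE5, a copine gene.

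The most heavily counted CDKN1A loop spans 60 kb, from 36620001 to 36625000 upstream to the bin inside the gene, with 107 counts in DMSO, 125 in APH, 81 in HU and 120 in H2O. HU was lowest, although its total over shared loops exceeds that of DMSO. The scaled log2 ratio was -0.55 for HU vs H2O (-0.98 to -0.13) and -0.10 for APH vs DMSO (-0.49 to 0.28).
The neighbouring upstream bin, at 36615001 to 36620000, formed a loop of 65 kb with 58 counts in DMSO, 66 in APH, 45 in HU and 77 in H2O. Its ratio was -0.76 for HU vs H2O (-1.32 to -0.21).
The loop of 55 kb from 36625001 to 36630000 had 34, 42, 41 and 31 counts in DMSO, APH, H2O and HU. It was lowest in HU as well, but its interval included 1 (log2 ratio -0.39, -1.11 to 0.32).
Downstream, the loop of 75 kb to CPNE5 at 36755001 to 36760000 had 52 counts in DMSO, 70 in APH, 43 in HU and 75 in H2O. Its ratio for HU vs H2O was -0.79 (-1.36 to -0.23), so loops on either side of the gene were lower.
Thus 3 of the 4 shared CDKN1A loops had an interval below 1 in HU vs H2O, where 3.45% of all 9529 shared loops did and 3.92% had one above 1. All 4 share the bin inside the gene and are not independent, and the gene was chosen with earlier results of these data known. Against DMSO, the other vehicle, HU gave -0.50 (-0.94 to -0.07) for the loop of 60 kb and -0.47 (-1.06 to 0.12) for that of 65 kb. The loop of 55 kb gave -0.23 (-0.98 to 0.51) and that of 75 kb -0.375 (-0.99 to 0.24). Only the interval of the 60 kb loop excluded 1 against DMSO.

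**Figure D1:**
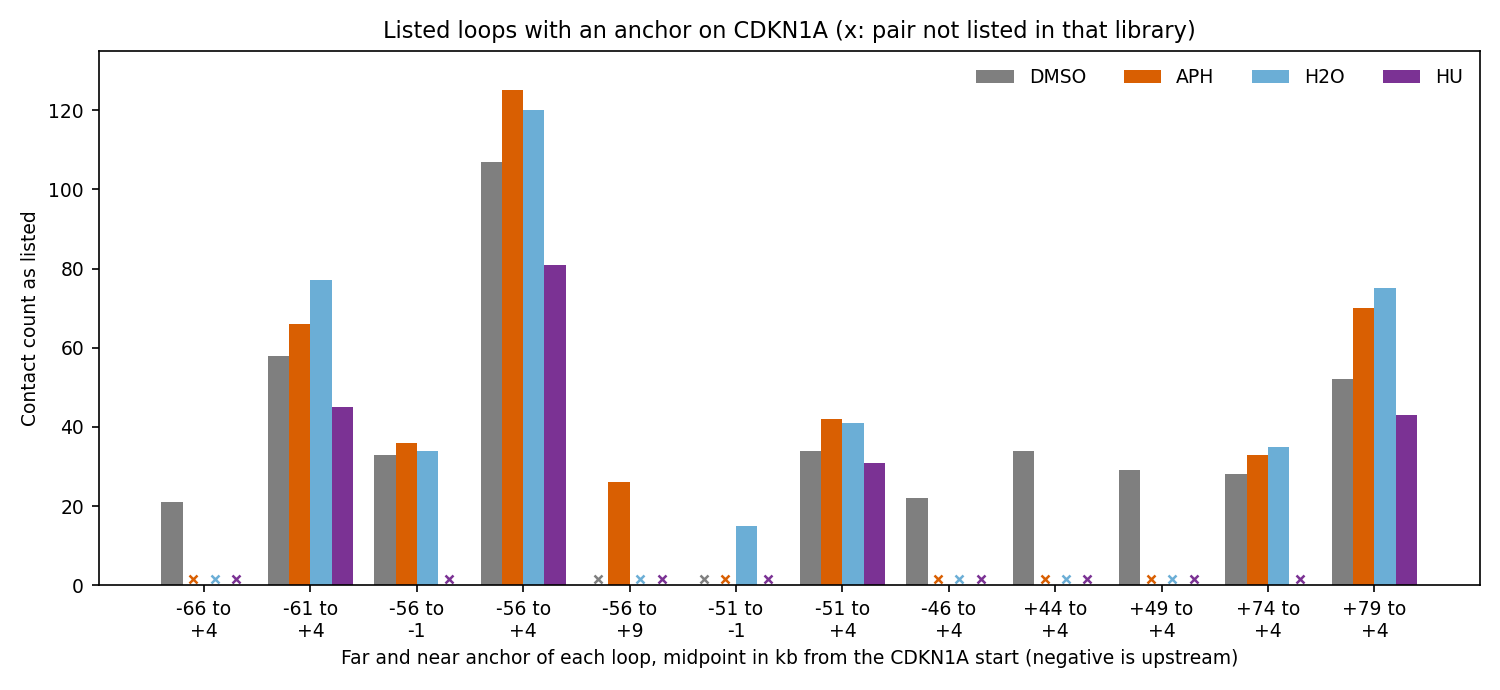
Contact counts as listed (vertical axis) of the 12 loops with an anchor on CDKN1A, placed by the midpoints of their far and near anchors in kb from the gene start. Bars show the 4 libraries, and a cross marks a pair that a library does not list. HU is the lowest bar of each of the 4 loops listed in all libraries, and the other 8 pairs have no HU bar.

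Other CDKN1A loops were listed in some libraries only. The loop from 36620001 to the bin of the gene start had 33 counts in DMSO, 36 in APH and 34 in H2O, and was not listed in HU. The same held for the loop of 70 kb to CPNE5 at 36750001, with 28, 33 and 35 counts. Of the other 6 loops, 4 were listed in DMSO alone, with 21 to 34 counts, and 2 of these reached RAB44. APH alone listed a loop of 26 counts and H2O alone a loop of 15 counts. HU listed no CDKN1A loop of its own. Just past the gene, however, in the bin that begins 2669 bp after the gene end, HU listed 3 loops with 18, 18 and 21 counts. APH and H2O listed 2 of these 3, with 18 and 22 counts in APH and 15 and 20 in H2O, and DMSO listed none of them.

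Summed over the 4 shared loops, CDKN1A had 251 counts in DMSO, 303 in APH, 200 in HU and 313 in H2O. Per 100000 shared counts these were 83.6 (73.6 to 94.6) in DMSO, 80.4 (71.6 to 90.0) in APH, 62.1 (53.8 to 71.3) in HU and 96.1 (85.8 to 107) in H2O. The HU interval lies below those of DMSO, APH and H2O, which overlap each other.
The HU library had 0.646 times the scaled count of H2O (log2 ratio -0.63, -0.89 to -0.37). Against DMSO, the other vehicle, HU stood at -0.43 (-0.70 to -0.15). APH vs DMSO gave -0.06 (-0.30 to 0.19), while APH against H2O gave -0.26 (-0.49 to -0.03), and H2O vs DMSO gave 0.20 (-0.04 to 0.45). H2O was thus the highest library at CDKN1A, and the HU ratio is smaller when DMSO takes its place.

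The expected count, which the authors' background model gives for each pair of bins, was not lower in HU than in H2O. Summed over the 4 shared CDKN1A loops it was 49.8 in DMSO, 66.7 in APH, 62.1 in HU and 51.0 in H2O. The observed count was 5.05 times the expected count in DMSO, 4.54 times in APH, 6.14 times in H2O and 3.22 times in HU. HU was thus also the lowest library on this scale.

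Among the 2452 genes with at least 100 shared counts in the H2O and HU libraries together, 25 (1.02%) had a ratio at or below that of CDKN1A. With 513 counts in the pair CDKN1A is among the well-counted genes, and of the 180 genes with at least that many it had the lowest ratio. In APH vs DMSO, 80 of 166 genes with at least as many counts were at or below it, so that ratio lay near the middle. CDKN1A was chosen with earlier results of these data known, so these ranks only describe it.

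Loops around the gene were not lower in HU. The 12 shared loops with an anchor within 250 kb and none on CDKN1A summed to 435 counts in HU and 382 in H2O (log2 ratio 0.20, 0.0018 to 0.41), and 7 of the 12 were higher in HU. The gene's ratio minus that of its neighbours was -0.83 on the log2 scale (-1.17 to -0.50). The comparison can be narrowed to loops that share the upstream anchors. The 3 shared loops from the upstream bins to CDKN1A had 157 counts in HU and 238 in H2O (-0.58, -0.88 to -0.29). The 8 shared loops that leave upstream bins and pass over the gene to RAB44 or CPNE5 had 229 and 225 (0.04, -0.23 to 0.31). In APH vs DMSO the same sets gave -0.10 (-0.38 to 0.18) and 0.13 (-0.13 to 0.39), with overlapping intervals.

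**Figure D2:**
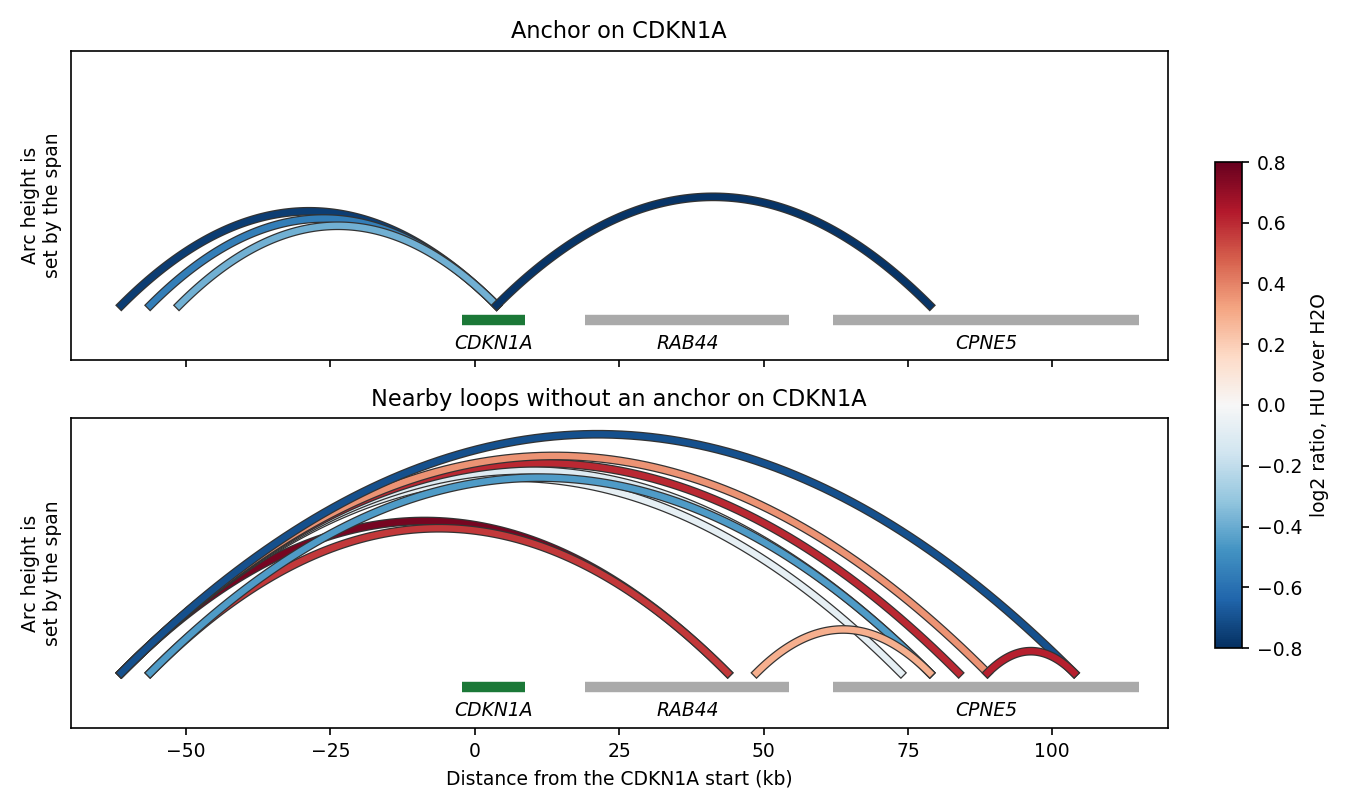
Shared loops at CDKN1A and around it by position in kb from the gene start, with arc height set by the span and colour by the log2 ratio of HU over H2O. The upper panel holds the 4 loops that end on the gene, all below 0, and the lower panel 10 of the 12 nearby loops, with ratios on either side of 0 (the other 2 reach beyond the plotted range).

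As a share of all counts a library lists, CDKN1A loops took 93.0 counts per 100000 in DMSO (84.3 to 102), 54.3 in APH (49.1 to 59.9), 36.3 in HU (31.5 to 41.7) and 69.0 in H2O (62.3 to 76.1). These intervals do not overlap. The order is DMSO, H2O, APH, HU, and it depends on how much each list holds besides the gene, since APH listed the most loops. For this reason the shares describe the lists, and the shared loops carry the comparisons between libraries. When the gene body was widened by 5 kb, the share was 46.7 in HU, 59.8 in APH and 75.0 in H2O, because the loops just past the gene were then included. The DMSO library lists none of those loops, and its share stayed at 93.0.

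**Figure D3:**
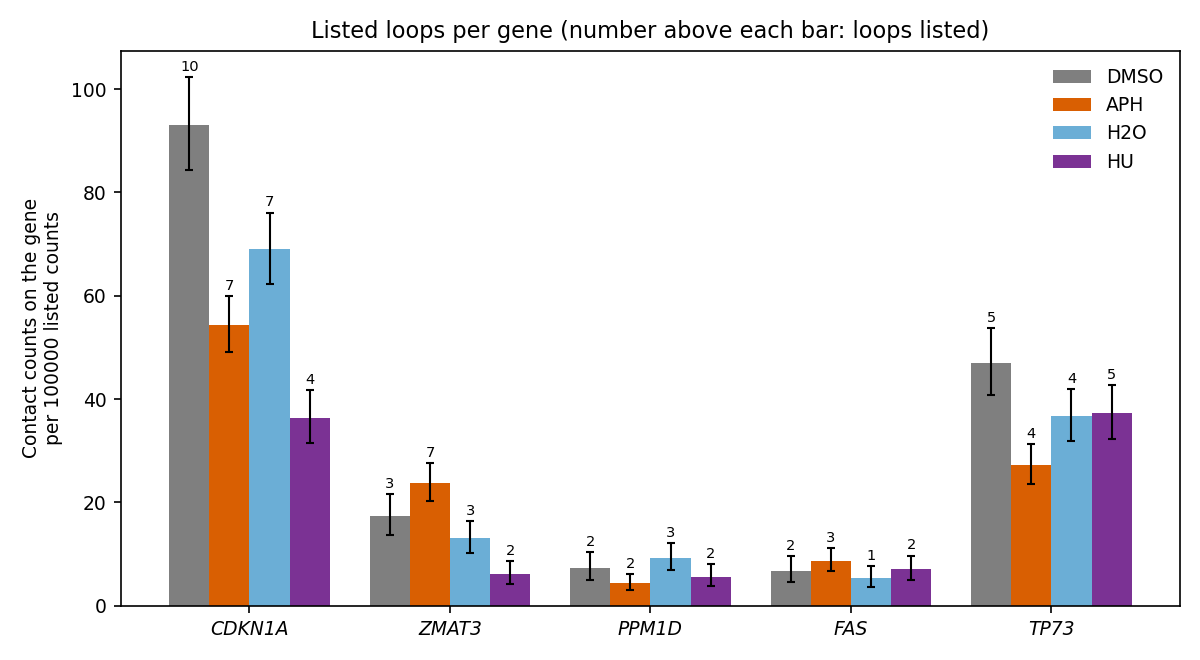
Share of all listed counts on each of the 5 genes, per 100000, by library, with 95% exact intervals for counting error. CDKN1A is at 93.0 in DMSO and 36.3 in HU, and ZMAT3 is highest in APH at 23.8 (numbers over the bars count the listed loops).

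ZMAT3 lies on chromosome 3 (179017223 to 179072513, minus strand). It had more listed loops in APH than in any other library and fewest in HU. APH listed all 7 of its loops with 174 counts, DMSO listed 3 with 78, H2O 3 with 75 and HU 2 with 34. Both shared loops end in the same bin, 179315001 to 179320000, which holds no gene and lies next to a bin on ZNF639, a zinc finger gene. The loop of 300 kb from the 3′ end of ZMAT3 had 30 counts in DMSO, 29 in APH, 20 in HU and 34 in H2O. The loop of 250 kb from the bin at 179065001 had 19, 22, 14 and 27 counts in the same order. That bin holds the inner start of the gene, and the bin of the outer start carried a loop to the same far anchor with 12 counts in APH alone. HU was lowest for both shared loops, although the interval of each alone included 1.

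Together the shared ZMAT3 loops had 49, 51, 61 and 34 counts in DMSO, APH, H2O and HU. HU had 0.564 times the scaled count of H2O (log2 ratio -0.83, -1.48 to -0.20). With DMSO as the vehicle the ratio was -0.63 and its interval included 1 (-1.30 to 0.03). APH vs DMSO gave -0.27 (-0.86 to 0.33). The 4 shared loops nearby had 94 counts in HU and 86 in H2O, and the gene's log2 ratio minus theirs was -0.97 (-1.76 to -0.19).
Loops inside the gene body were listed in the DMSO and APH libraries only. The loop of 50 kb between the 3′ end and the inner start had 29 counts in DMSO and 34 in APH. A loop of 30 kb within the gene had 42 counts in APH alone. APH alone also listed, with 23 counts, a loop of 80 kb to PIK3CA, which encodes a catalytic subunit of phosphoinositide 3-kinase. These pairs have no value in HU or H2O, so no ratio was taken.

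PPM1D lies on chromosome 17 (60600193 to 60666280, plus strand) and had the fewest loops. Its single shared loop spans 215 kb from a bin on USP32 and CHCT1 to a bin inside PPM1D, with 21 counts in DMSO, 15 in APH, 17 in HU and 19 in H2O. These values lie close together. APH vs DMSO gave -0.81 (-1.87 to 0.21) and HU vs H2O gave -0.14 (-1.18 to 0.88), so no difference was detectable at these counts. A loop of 60 kb from the non-coding gene LINC01999 was listed in APH, H2O and HU with 17, 16 and 14 counts. A loop of 220 kb was listed in DMSO with 12 counts and in H2O with 18. The nearest anchor lies 34808 bp from the PPM1D start, so no listed loop touches its promoter.

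FAS lies on chromosome 10 (88964050 to 89017059, plus strand), where its body overlaps ACTA2, the gene of smooth muscle actin. The FAS anchors between 88980001 and 88990000 lie on both genes, so the loops cannot be assigned to either. Every listed FAS loop has its other end within ACTA2. The single shared loop, of 50 kb, had 16 counts in DMSO, 31 in APH, 24 in HU and 31 in H2O. DMSO was the lowest library, and APH and H2O had equal counts. APH vs DMSO gave 0.63 (-0.29 to 1.60), H2O vs DMSO 0.84 (-0.08 to 1.81) and HU vs H2O -0.35 (-1.19 to 0.46), with intervals that all included 1. The loop of 65 kb, the one FAS loop whose anchor lies on FAS without ACTA2, had 14 counts in DMSO and 16 in APH. The nearest anchor edge lies 798 bp from a FAS start, and no anchor holds one.

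TP73 lies on chromosome 1 (3652516 to 3736201, plus strand). Its loops were short, and 5 of 6 had both anchors in the gene, near its 5′ end. The bin at 3650001 to 3655000 holds the outer start, and it also overlaps WRAP73, a gene of a WD repeat protein. The other anchors lie further inside TP73. The loop of 10 kb from 3655001 to 3665001 had 54 counts in DMSO, 60 in APH, 48 in HU and 63 in H2O. The loop of 25 kb from the start bin had 36, 42, 34 and 44 counts in the same order, and the loop of 20 kb from 3655001 had 35, 52, 34 and 50. HU had the lowest count of each. The start bin also carried a loop of 15 kb listed in APH, H2O and HU with 46, 54 and 34 counts. A loop of 10 kb from 3665001 was listed in DMSO with 72 counts and in HU with 55, and DMSO alone listed a loop of 100 kb to MEGF6 with 14.

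Summed over its 3 shared loops, TP73 had 125 counts in DMSO, 154 in APH, 116 in HU and 157 in H2O. HU had 0.747 times the scaled count of H2O (log2 ratio -0.42, -0.78 to -0.07), and APH vs DMSO gave -0.03 (-0.38 to 0.33). The HU ratio was -0.21 against DMSO (-0.59 to 0.17) and -0.10 when each count was divided by its expected count (-0.46 to 0.26), with intervals that included 1. The observed count was 2.21 times the expected count in DMSO, 2.85 in APH, 2.47 in HU and 2.65 in H2O, so on this scale HU was not the lowest library. The 3 shared loops nearby were higher in both drug libraries. These loops lie on ARHGEF16, a guanine nucleotide exchange factor gene, and on SMIM1 and LRRC47. They had 102 counts in HU against 67 in H2O (0.62, 0.16 to 1.09) and 125 in APH against 61 in DMSO (0.71, 0.25 to 1.17). The ratio of TP73 minus that of these neighbours was -1.04 in HU vs H2O (-1.64 to -0.45) and -0.73 in APH vs DMSO (-1.32 to -0.15).

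Across the 5 genes, the summed ratio of HU vs H2O was below 0 for each, and 3 of 5 had an interval below 1, namely CDKN1A, ZMAT3 and TP73. Among all 4831 genes with a shared loop, 5.09% had an interval below 1 and 6.19% an interval above it. The 5 genes were chosen with earlier results of these data known, so their count cannot measure an excess at p53 genes. Of 14 other p53 target genes with shared loops, described below, 0 had an interval that excluded 1 in HU vs H2O. In APH vs DMSO none of the 5 genes had an interval that excluded 1, where 3.71% of genes were lower and 3.19% higher. This count depends on the scaling. With totals of all listed counts, every ratio of this pair is lower by 0.38 on the log2 scale, and CDKN1A (-0.43), ZMAT3 (-0.65), PPM1D (-1.19) and TP73 (-0.40) then had intervals below 1. In H2O vs DMSO none did either, where 1.84% were lower and 1.28% higher. By ratio alone, 12.6% of genes were at 0.8 or below in H2O vs DMSO and 12.2% as far above 1, although these libraries had no drug. At the level of single loops, all 11 shared loops of the 5 genes were below 0 in HU vs H2O, with a median of -0.54, and 3 had an interval below 1. In APH vs DMSO 8 of the 11 were below 0, with a median of -0.11 and no interval that excluded 1 (2.74% of all shared loops were lower and 2.76% higher by this rule). The 11 loops share anchors within each gene and are not independent. In H2O vs DMSO 10 of the 11 were above 0, with a median of 0.17, so the H2O library was itself high at these loops, although no interval excluded 1 (1.36% of all shared loops were lower and 1.26% higher).

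**Figure D4:**
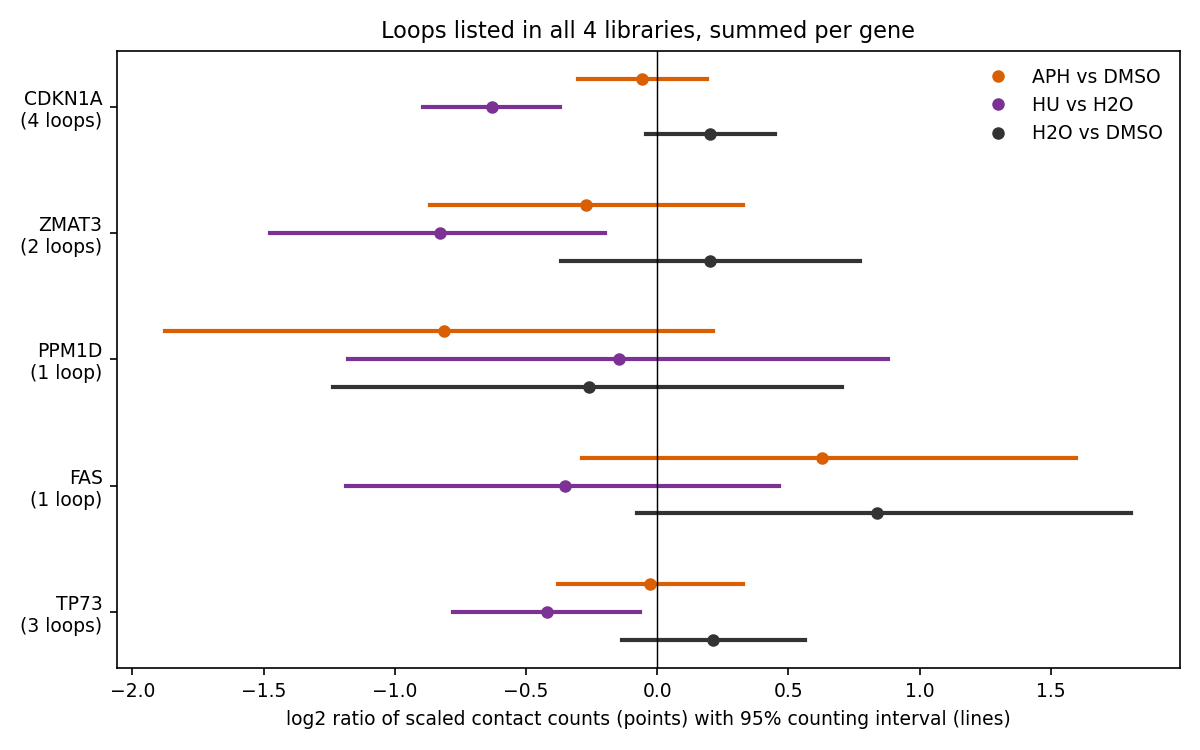
Log2 ratio of summed shared-loop counts for each of the 5 genes (horizontal axis) in the 3 library pairs, with 95% exact intervals for counting error. CDKN1A, ZMAT3 and TP73 lie below 0 with their whole interval in HU over H2O, and no other interval excludes 0.

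The difference between the drug ratios was taken directly, since HU vs H2O and APH vs DMSO share no library. For CDKN1A the HU ratio minus the APH ratio was -0.57 (-0.94 to -0.21). For ZMAT3 the difference was -0.55 (-1.45 to 0.33), for TP73 -0.39 (-0.90 to 0.11), for FAS -0.97 (-2.26 to 0.29) and for PPM1D 0.66 (-0.82 to 2.16). The CDKN1A interval alone excluded 0, and it did so only under some settings. With totals of all listed counts the CDKN1A difference was -0.15 (-0.51 to 0.21), and with the vehicles exchanged (HU vs DMSO minus APH vs H2O) it was -0.17 (-0.53 to 0.19). Whether the interval excluded 0 therefore depended on the scaling and on which vehicle library was paired with which drug. The agents also differ in dose, target and vehicle, and these cannot be told apart.

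A wider list of 49 p53 target and p53 family genes places the 5 genes among their pathway. The list includes these 5. Of the 49, 14 had no listed loop, among them BBC3, which encodes the death protein PUMA, and SESN2, a sestrin gene. The other 35 (71.4%) had one, where 47.4% of all 19974 protein-coding genes did. Of these 35, 16 had no loop listed in all 4 libraries. MDM2, the ubiquitin ligase that removes p53, had 1 loop, with 32 counts in DMSO, 40 in APH and 30 in H2O, and it was not listed in HU. BAX, a pore-forming death gene, had loops in DMSO and APH only, with 42 and 29 counts. Others of the 16 went the other way. PERP had 20 counts in DMSO, 19 in APH and 36 in HU, and it was not listed in H2O. SFN had 29 counts in APH and 28 in HU, and neither vehicle library listed it. The share of all genes with no listed loop in HU was not computed, so these are facts about the lists. The other 19 genes, 38.8% of the list, had shared loops, where 24.2% of all protein-coding genes did. Both shares of the list, 71.4% and 38.8%, are raised by the 5 genes. These all have shared loops and were chosen with earlier results of these data known. In HU vs H2O 3 of these 19 had an interval below 1 (CDKN1A, ZMAT3 and TP73) and 0 had one above it, where 5.09% and 6.19% of all genes did. All 3 are among the 5 genes described above, and of the other 14 genes 0 had an interval that excluded 1. A ratio of at most 0.8 was found in 6 of the 19 and one as far above 1 in 2 (16.4% and 17.7% of all genes). Their median ratio was -0.09, where that of all genes was 0.0024. In APH vs DMSO 0 of 19 had an interval that excluded 1, with a median of 0.05 against -0.02 for all genes, while 2 of 19 had a ratio of at most 0.8 and 4 were higher by the same factor (15.9% and 14.4% of all genes). Without the 5 genes, the median of the other 14 was 0.07 in HU vs H2O, with 2 at a ratio of at most 0.8 and 2 as far above 1, and 0.12 in APH vs DMSO, with 1 and 3. In H2O vs DMSO 1 of the 19 had an interval below 1, FDXR, the gene of ferredoxin reductase, at -0.73 (-1.28 to -0.19), where 1.84% of all genes did.

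**Figure D5:**
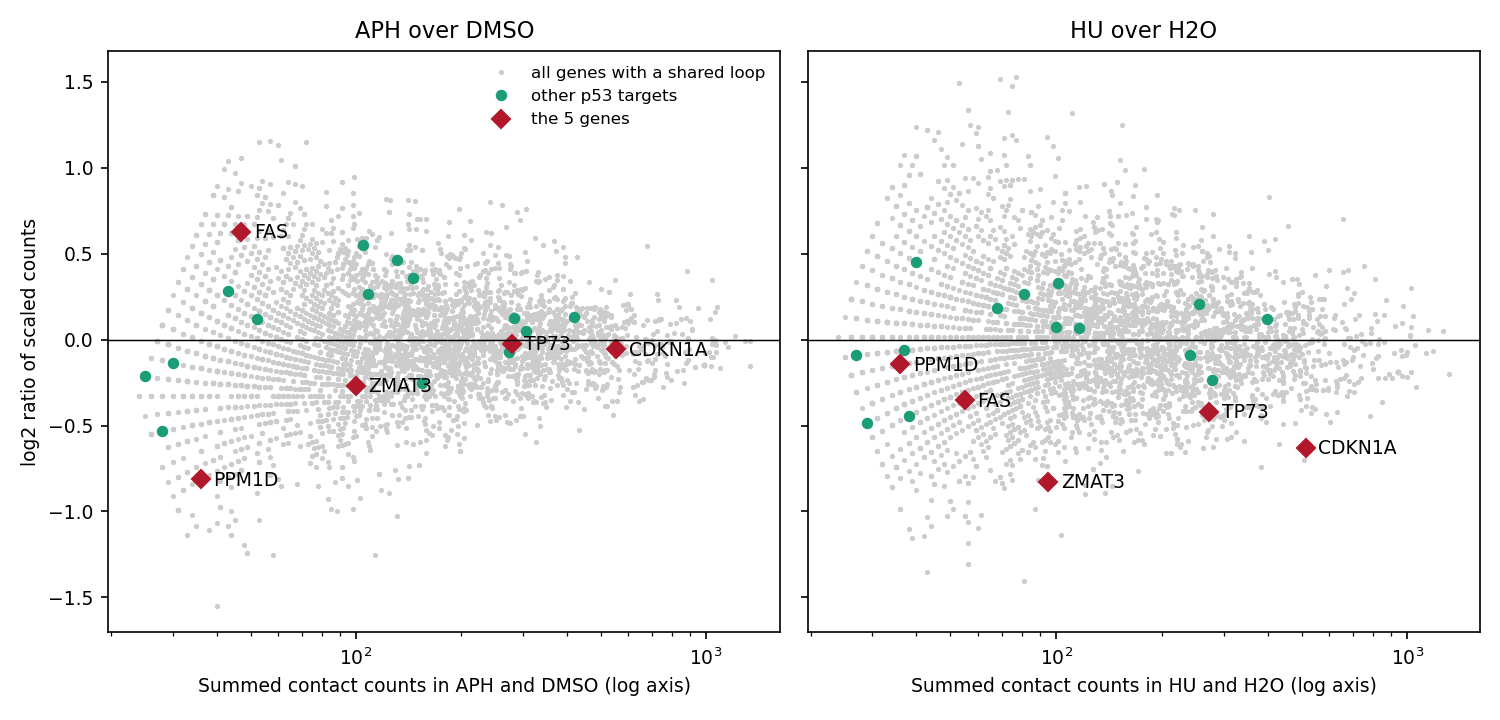
Log2 ratio against the summed counts of both libraries (log axis) for all genes with a shared loop, in the drug and vehicle pairs, with the 5 genes named as diamonds and the other p53 targets as green points. In HU over H2O, CDKN1A lies at -0.63 with 513 counts, below the other genes of at least that count.

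Among the other p53 targets, the highest ratio of APH vs DMSO after FAS was in PMAIP1, the gene of the death protein NOXA, at 0.55 (-0.05 to 1.17), and the lowest after PPM1D in APAF1, the apoptosome scaffold, at -0.53 (-1.73 to 0.64). The highest ratios of HU vs H2O were in ATF3, the gene of a stress-response factor, at 0.45 (-0.52 to 1.45), and in BTG2, an antiproliferative gene, at 0.33 (-0.26 to 0.93). All of these intervals included 1.

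The genes most like each member over the 4 libraries were sought by the distance between centred log2 profiles. The search ran over the 3834 genes with at least 100 shared-loop counts, less the member itself and genes that share a loop with it. For CDKN1A these were ATP5F1D, at a distance of 0.032, PKIG and MORC3. ATP5F1D had 49 counts in DMSO, 59 in APH, 40 in HU and 61 in H2O. For ZMAT3 they were COMMD1, at 0.081, PTMA and FYN, and for TP73 FRMD4B, at 0.029, ZNF395 and DPM1. For FAS they were ABCA2 and NPDC1, which share their loops, and MANBAL. PPM1D had too few counts for this comparison. With 4 libraries a small distance describes these profiles and no more.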

How the data were processed

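Loops of SMC1 HiChIP in 4 libraries, 1 per group, were read from the authors' deposited lists (hg38, bins of 5 kb). The submitters' processing notes name bcl2fastq 2.17 and MACS3 3.0.1; for the loop caller, the name is not given in the sources used here. Since the lists have no header, the columns were identified from their values. Each deposited row holds a contact count (at least 12), an expected count, a signal from the authors' background model, and an adjusted p-value below 0.01. Only called loops of 10 to 1000 kb were listed, so total read depth is unknown. These p-values were not used.

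A loop belonged to a gene when a 5 kb anchor overlapped its RefSeq body (GRCh38.p14). Counts over the loops listed in all 4 libraries were summed per gene for every protein-coding gene with such a loop (4831 genes). Each sum was divided by the total of its library over those loops and compared as log2 ratios, with exact conditional binomial (Clopper-Pearson) 95% intervals for counting error only. No p-value was computed, since no group has a replicate. A ratio counted as called when its interval excluded 1, or, by a second rule, at 0.8 or below or as far above 1. Promoter windows of 250 bases came from the RefSeq table, and motifs were searched on both strands. Ratios and intervals were tested on simulated counts that held counting error only, as the intervals assume. Such a test cannot show how well the intervals cover differences between cultures.

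Named genes were the 5 members, the genes at their far anchors, the p53-list genes whose interval excluded 1 in APH vs DMSO or HU vs H2O or with the 2 highest and 2 lowest ratios there, and for each member with at least 100 counts the 3 genes with the nearest profile. MDM2, BAX, BBC3, SESN2, PERP, SFN, FDXR and the neighbouring loops were chosen after their values were seen. A gene of the p53 lists is not reported here and enters none of their counts. The members and lists were chosen with earlier results of these data known. Alternatives covered scaling, loop set, a minimum of 24 counts, anchor matching, the gene window, the expected count, span class and the vehicle, and, added after seeing the data, ratios relative to loops within 250 kb and the settings for the difference of the drug ratios. Python 3.11.15, numpy 2.4.6, pandas 2.3.3, scipy 1.17.1 and matplotlib 3.10.9 were used.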

Additional observations from a re-analysis of the deposited data

Results flagged for a closer look

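For CDKN1A the log2 ratio of HU vs H2O was -0.63 and that of APH vs DMSO -0.06, a difference of -0.57 (-0.94 to -0.21). What drew attention is that the difference between the drug and vehicle pairs has an interval that excludes 0, which did not hold for ZMAT3, PPM1D, FAS or TP73. It depends on the settings: the difference was -0.15 (-0.51 to 0.21) with totals of all listed counts and -0.17 (-0.53 to 0.19) with the vehicles exchanged, and from -0.74 to -0.57 under the other 5 settings run. The interval covers counting error only, and with 1 library in each group the spread between cultures is unknown. The H2O library was 0.20 above DMSO at CDKN1A (-0.04 to 0.45).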

How the results depend on the processing

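CDKN1A in HU vs H2O stayed below 0 with an interval that excluded 1 under all 9 alternatives, from -0.93 to -0.43, and no ratio of the 5 genes reported with an interval that excluded 1 changed sign. At FAS, past the fold but with an interval that included 1, APH vs DMSO turned to -0.21 with the other vehicle, and HU vs H2O to 0.39 within 1 bin. Scaling by all listed counts, which shifts APH vs DMSO as a whole because APH listed more loops, gave APH vs DMSO ratios of -0.43 for CDKN1A, -0.65 for ZMAT3, -1.19 for PPM1D and -0.40 for TP73, each then with an interval below 1. Matching anchors within 1 bin, which adds loops listed in some libraries only, gave in APH vs DMSO -0.28 for CDKN1A, -1.58 for PPM1D and 1.14 for FAS, for HU vs H2O -1.06 for PPM1D, while TP73 became 0.55 for H2O vs DMSO. There a pair that a library does not list was counted as 0, although it is not a measured 0. All values given within 1 bin, the counts of p53 targets included, therefore depend in part on which pairs passed the listing rule. Dividing by the expected count gave TP73 0.33 (APH vs DMSO), -0.10 when HU was set against H2O, while H2O vs DMSO became 0.29 for CDKN1A and 0.96 for FAS. With the other vehicle, APH at CDKN1A was -0.26, and HU was -0.63 at ZMAT3, 0.48 at FAS and -0.21 at TP73. Relative to loops within 250 kb, an alternative chosen after seeing the data, TP73 was -0.73 in APH vs DMSO. The difference of the drug ratios at CDKN1A was -0.15 with all listed counts and -0.17 with the vehicles exchanged, both with intervals that included 0. With the vehicles exchanged it was 0.69 at FAS, and within 1 bin it was -1.24 at ZMAT3 and -0.66 at TP73; these settings too were chosen after seeing the data. The p53 targets whose interval excluded 1 numbered 0 in APH vs DMSO, and 6 with all listed counts, 5 within 1 bin, 1 with the expected count and 4 with the other vehicle. In HU vs H2O they numbered 3, and 9 within 1 bin. In H2O vs DMSO they numbered 1, and 3 with all listed counts, 0 with at least 24 counts, 8 within 1 bin and 3 with the expected count. Causes were not tested beyond how each alternative is built. A minimum of 24 counts left no loop for ZMAT3, PPM1D or FAS, and PPM1D had no loop within 250 kb. No paired analysis was possible because each group holds 1 library. Low counts limit PPM1D and FAS, each with 1 shared loop of at most 31 counts.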

Other observations

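On the upstream side of the p53 pathway, a list of 24 regulators and DNA damage checkpoint genes was read. Of these 24, 9 had no listed loop, 10 had loops listed in some libraries only, and 5 (20.8%) had shared loops, where 24.2% of all 19974 protein-coding genes did. A listed loop of any kind was present for 62.5% of the 24 and for 47.4% of all genes. The kinase genes ATR, CHEK1 and CHEK2, which signal stalled replication and broken DNA, were among those with no listed loop. ATM, the kinase gene of the double-strand break response, had 2 loops with 69 counts in APH alone. WEE1, the gene of the kinase that holds CDK1 inactive, had 2 loops in each drug library, with 75 counts in APH and 67 in HU, and was not listed in either vehicle library. PRKDC and BRCA1, both genes of break repair, had loops in HU alone, with 34 and 20 counts. Other genes of the list went otherwise. RPA1 had 31 counts in DMSO, 12 in APH and 23 in H2O, and it was not listed in HU. The share of all genes listed under the drugs alone was not computed, and the APH list is the longest of the lists. A pair that is not listed may lie just under the calling threshold, so these are facts about the lists. ATM, WEE1, PRKDC, BRCA1 and RPA1 were chosen after their values were seen.

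Among the 5 regulators with shared loops, HIPK2, the gene of a kinase that phosphorylates p53, had 6 loops, whose counts summed to 159 for DMSO, 159 for APH, 155 for H2O and 149 for HU. Its ratio for APH vs DMSO was -0.33 (-0.65 to -0.0016), the only one of the 5 with an interval below 1 (3.71% of all genes). The raw counts of the pair were equal, and the total over shared loops was larger in APH (376948) than in DMSO (300320), so the scaled count was lower in APH. Against H2O, the other vehicle, APH at HIPK2 gave -0.17 (-0.50 to 0.15), with an interval that included 1. EP300, the gene of the acetyltransferase p300, had -0.46 in APH vs DMSO (-1.39 to 0.46). In HU vs H2O the lowest was KAT5, the gene of the acetyltransferase TIP60, at -0.44 (-1.21 to 0.32), followed by CLSPN, the gene of the checkpoint adaptor claspin, at -0.15 (-0.74 to 0.43). The highest were USP7, the gene of a deubiquitinase of the p53 pathway, at 0.02 (-0.57 to 0.60), and EP300 at -0.04 (-0.85 to 0.78), and none of the 5 had an interval that excluded 1. In APH vs DMSO the highest were CLSPN at 0.08 (-0.50 to 0.66) and USP7 at -0.13 (-0.68 to 0.43). The median of the 5 was -0.13 in APH vs DMSO, where that of all genes was -0.02, and -0.04 in HU vs H2O, where it was 0.0024.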
